A study of Mus musculus with 42 samples.

Results

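The nuclear genes for the subunits of respiratory chain complexes I to IV were examined in mouse muscle precursors and satellite cells. Members were chosen by symbol alone (Nduf a, b, c, s and v genes, Sdha to Sdhd, Uqcr genes and Cox4 to Cox8 genes), which gave 67 of the 24466 gene symbols in the count files. Of these, 37 belong to complex I, 4 to complex II, 8 to complex III and 18 to complex IV by their names. RNA was sequenced from iPax7 cells, a mouse embryonic stem cell line in which doxycycline (Dox) switches on Pax7, sorted as PDGFαR+Flk-1- muscle precursors. The +Dox group (3 libraries) was grown in 0.75 μg/ml Dox, the -Dox group (2 libraries) was kept for 3 days without it in medium with FGF. Satellite cells (3 libraries), the resident stem cells of skeletal muscle, came from the muscle of Pax7-ZsGreen reporter mice, and their labels give no Dox treatment. All iPax7 libraries come from 1 engineered line, and nothing in the labels says that the libraries of a group came from separate cultures or animals, so p-values measure only the spread between these libraries.

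The respiratory chain passes electrons from NADH (complex I, NADH dehydrogenase) and succinate (complex II, succinate dehydrogenase) through complex III (cytochrome bc1) to oxygen at complex IV (cytochrome c oxidase), and pumps the protons that drive ATP synthase. Most subunits are encoded in the nucleus and are made in every cell. Complex IV differs in that several nuclear subunits have a second gene used in certain tissues. Cox6a2, Cox7a1 and Cox8b are the heart and skeletal muscle isoforms, with Cox6a1, Cox7a2 and Cox8a as their general partners, while Cox4i2 is an isoform of lung and of cells in low oxygen, and Cox6b2, Cox7b2 and Cox8c are best known from testis.

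The libraries held 39010958 to 54674619 counts on genes. Pax7 was present at 264.5 to 349 CPM (counts relative to the library total) in +Dox, 4.5 and 5.7 in -Dox and 74.6 to 165.6 in satellite cells, in the order the labels give. The muscle fibre list (12 genes) summed to 153 to 270 CPM in +Dox, 33171 and 33623 in -Dox and 211 to 392 in satellite cells, and the satellite cell list (8 genes) to 4755 to 6057, 1099 to 1137 and 13292 to 20404 CPM. Satellite libraries also held markers of other cells. The endothelial list (6 genes) summed to 281 to 415 CPM there against 0.0189 to 3.82 in the 5 iPax7 libraries, the mesenchymal list (6 genes) to 1023 to 2135 against 85.4 to 287, the blood list (6 genes) to 39.6 to 185 against 3.59 to 11.5, and the red cell list (5 genes) to 13.9 to 22.9 against 0 to 0.267, with all 4 globin genes at 0 in every library. Alignments set aside as not unique made up 23.58 to 30.68% of the records in satellite cells and 7.11 to 7.6% in iPax7 cells. The library +Dox replicate 3 stood apart: it was the highest of the 3 +Dox libraries for 58 of the 64 members with a count, and lowest for 5. Counts and medians over the members, the complexes and the gene lists are therefore also given without it, and calls on named genes that were lost without it are named.

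In all, 64 members had counts and passed the filter on low counts, and Ndufs5, Cox7b2 and Cox8c were listed at 0 in every library. Cox7b2 and Cox8c are the testis isoforms. Ndufs5, an accessory subunit of complex I, had an acetylated and H3K4me3-marked start in +Dox, and 49.8% of the 50-base windows of its transcript have an exact copy elsewhere in the genome. Cox5b and Uqcrb, with 62.7 and 61.5% of windows copied, had counts in every library, and the part of copies in the 0 of Ndufs5 was not tested. Ndufa4l2 passed the filter through its satellite libraries alone.

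The members together took 1.23, 1.36 and 1.89% of all counts in the 3 +Dox libraries, 1.75 and 1.64% in the -Dox libraries, and 0.444, 0.385 and 0.439% in satellite cells. Every satellite library was thus below every iPax7 library, and the 2 iPax7 groups overlapped. Complex I made up the largest part in each library, with 0.594 to 0.903% of counts in +Dox and 0.138 to 0.186% in satellite cells. Complex II, with the fewest genes, held 0.116 to 0.129% of counts in +Dox, 0.121 and 0.132% in -Dox and 0.0354 to 0.0441% in satellite cells, and here too the satellite libraries lay below all others.

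**Figure D1:**
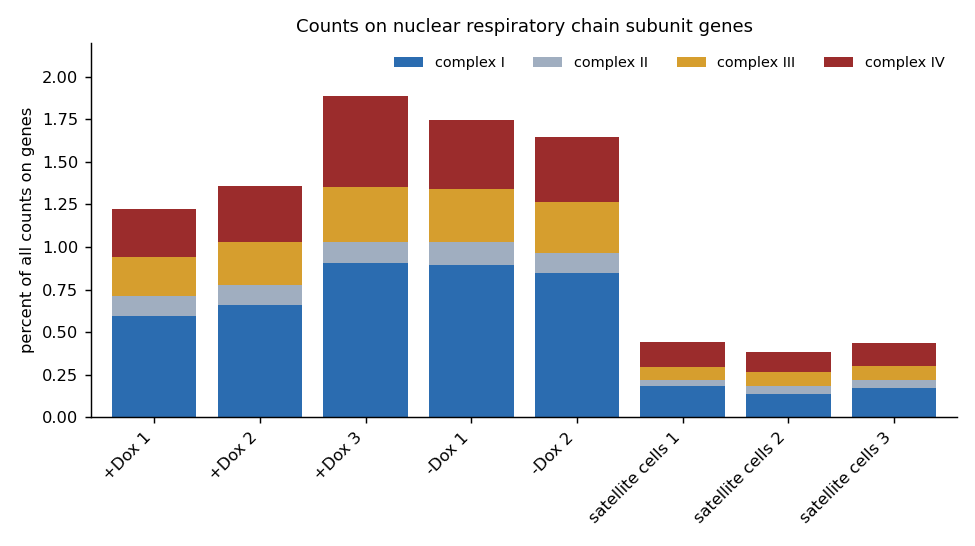
Percent of all counts on genes that fell on the subunit genes in each of the 8 libraries, stacked by complex. Satellite libraries sit between 0.385 and 0.444%, all below the 5 iPax7 libraries, which sit between 1.23 and 1.89%.

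The promoters of the muscle isoforms and of 1 general isoform are shown first, since these genes return in the expression and chromatin results. Each runs from 250 bases before to 50 bases after the annotated start of the longest coding transcript, 5′ to 3′ on the gene's strand, in NCBIM37 (mm9) coordinates. Cox6a2 lies on the minus strand at chr7:135349831-135350130, Cox8b on the minus strand at chr7:148086296-148086595, and Cox7a1 on the plus strand at chr7:30968940-30969239. Capitals mark E-boxes (CANNTG), the letters bound by MyoD-family factors.
Cox6a2: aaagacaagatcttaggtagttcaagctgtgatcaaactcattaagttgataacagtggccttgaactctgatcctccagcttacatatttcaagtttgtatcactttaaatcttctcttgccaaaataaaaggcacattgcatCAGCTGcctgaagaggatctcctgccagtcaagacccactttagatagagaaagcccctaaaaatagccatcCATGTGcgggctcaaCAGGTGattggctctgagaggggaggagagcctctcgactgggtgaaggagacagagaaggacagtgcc
Cox8b: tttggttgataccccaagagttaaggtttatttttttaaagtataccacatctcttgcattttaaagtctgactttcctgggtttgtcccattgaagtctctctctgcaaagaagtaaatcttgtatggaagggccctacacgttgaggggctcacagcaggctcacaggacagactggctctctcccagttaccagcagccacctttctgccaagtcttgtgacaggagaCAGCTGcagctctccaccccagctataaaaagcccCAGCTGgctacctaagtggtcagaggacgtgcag
Cox7a1: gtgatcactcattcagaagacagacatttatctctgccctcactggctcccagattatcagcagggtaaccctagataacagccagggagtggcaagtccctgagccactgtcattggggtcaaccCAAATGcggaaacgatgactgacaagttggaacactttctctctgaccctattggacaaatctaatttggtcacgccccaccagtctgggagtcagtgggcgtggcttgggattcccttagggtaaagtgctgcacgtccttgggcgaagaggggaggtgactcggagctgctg
The general isoform Cox6a1 lies on the minus strand at chr5:115798941-115799240, and here the capitals mark an NRF1 site and an ETS site (CCGGAAG, on the opposite strand).
Cox6a1: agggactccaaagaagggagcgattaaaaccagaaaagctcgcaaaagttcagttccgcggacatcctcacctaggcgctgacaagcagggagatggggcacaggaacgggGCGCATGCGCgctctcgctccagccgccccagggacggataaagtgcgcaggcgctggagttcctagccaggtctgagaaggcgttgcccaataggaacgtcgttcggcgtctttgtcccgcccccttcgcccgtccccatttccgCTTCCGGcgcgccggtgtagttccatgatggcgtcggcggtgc

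These promoters differ in base composition. The Cox6a2 and Cox8b windows hold 2 CpG dinucleotides each and Cox7a1 holds 7, against 30 in Cox6a1, and the ratio of observed to expected CpG was 0.13 in Cox6a2, 0.11 in Cox8b and 0.33 in Cox7a1, where the median of the 67 members was 0.73 and that of 19026 promoters of the same length was 0.59. An E-box was present in 46 of 67 member promoters (68.7%), close to the 68.1% of all promoters. NRF1 and the ETS factor GABP are general regulators of nuclear genes for the respiratory chain. The NRF1 palindrome, searched on both strands, was found in 3 members (Cox6a1, Ndufa11 and Uqcrc1, 4.48%) against 1.24% of all promoters, and the ETS letters in 13 members (19.4%) against 11.3%. The letters bound by estrogen-related receptors (TCAAGGTCA) were in Cox6c and Sdhd (2.99%, against 0.305% of all promoters). These are matches of letters and not sites of binding.

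Dox withdrawal was compared with growth in Dox to ask what happened to the subunit genes as precursors left the Pax7-expressing state. Only Cox6a2 and Cox8b rose, and no member fell. They are 2 of 64 members tested (3.12%), where 4.66% of the 14836 genes tested rose and 3.04% fell (edgeR quasi-likelihood test, Benjamini-Hochberg adjusted p under 0.05 over all genes). The fitted log2 fold change was above 0 in 59 of the 64 members and below 0 in 4, and the median was 0.44, a 1.35-fold higher level, against -0.005 over all genes tested. The median was 0.74 without +Dox replicate 3 and 0.30 without +Dox replicate 1. DESeq2 called 4 members higher and 1 lower in this comparison. In 26 members both -Dox libraries lay above all 3 +Dox libraries, where 22.7% of all genes tested did so, and in 2 both lay below, where again 22.7% of all genes did. An adjusted p above the threshold does not show that the other members did not change.

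Cox6a2, the muscle isoform of subunit VIa, had normalized counts (counts scaled to a common library size) of 13.5, 17.8 and 26.4 in +Dox, 3079 and 2400 in -Dox, and 32.9, 28.1 and 35.6 in satellite cells. The -Dox libraries stood far above all others and the groups did not overlap. Its log2 fold change in -Dox against +Dox was 7.15 ± 0.494 (SE, adjusted p = 4.3e-05), a 142-fold rise. Its general partner Cox6a1 had 8076, 8735 and 12641 in +Dox, 9352 and 8905 in -Dox, and 7280, 6167 and 8702 in satellite cells, so that the iPax7 groups overlapped (log2 fold change -0.10 ± 0.282, adjusted p = 0.921).

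Cox8b, the muscle isoform of subunit VIII, had normalized counts of 24.8, 31.1 and 13.7 in +Dox, 1572 and 1333 in -Dox, and 179, 13.4 and 29 in satellite cells. The -Dox libraries were again above every other library, and satellite replicate 1 stood above the other two satellite libraries. Its log2 fold change in -Dox against +Dox was 5.96 ± 1.05 (adjusted p = 0.00811). Cox8a, the general partner, was at 7543, 9305 and 15942 in +Dox and 11070 and 10394 in -Dox (log2 fold change -0.03 ± 0.338, adjusted p = 1). Over all the alternatives tried, the adjusted p stayed between 4.14e-53 and 0.000923 for Cox6a2 and between 1.09e-08 and 0.0406 for Cox8b.

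Cox7a1, the third muscle isoform, had 40.6, 58.5 and 135 in +Dox, 287 and 195 in -Dox, and 82.9, 63 and 68.6 in satellite cells. Both -Dox libraries lay above the +Dox libraries, yet the change did not pass the test (log2 fold change 1.63 ± 0.821, adjusted p = 0.293, or 2.28 with adjusted p = 0.168 without +Dox replicate 3). The difference between its change and that of Cox6a2 or Cox8b was not tested. The isoforms of other tissues gave no call in this comparison. Cox4i2 had 6.76, 3.7 and 0 in +Dox and 21.1 and 28.6 in -Dox (adjusted p = 0.253), and Cox6b2 had 1136, 1176 and 3355 in +Dox and 859 and 845 in -Dox (adjusted p = 0.24).

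**Figure D2:**
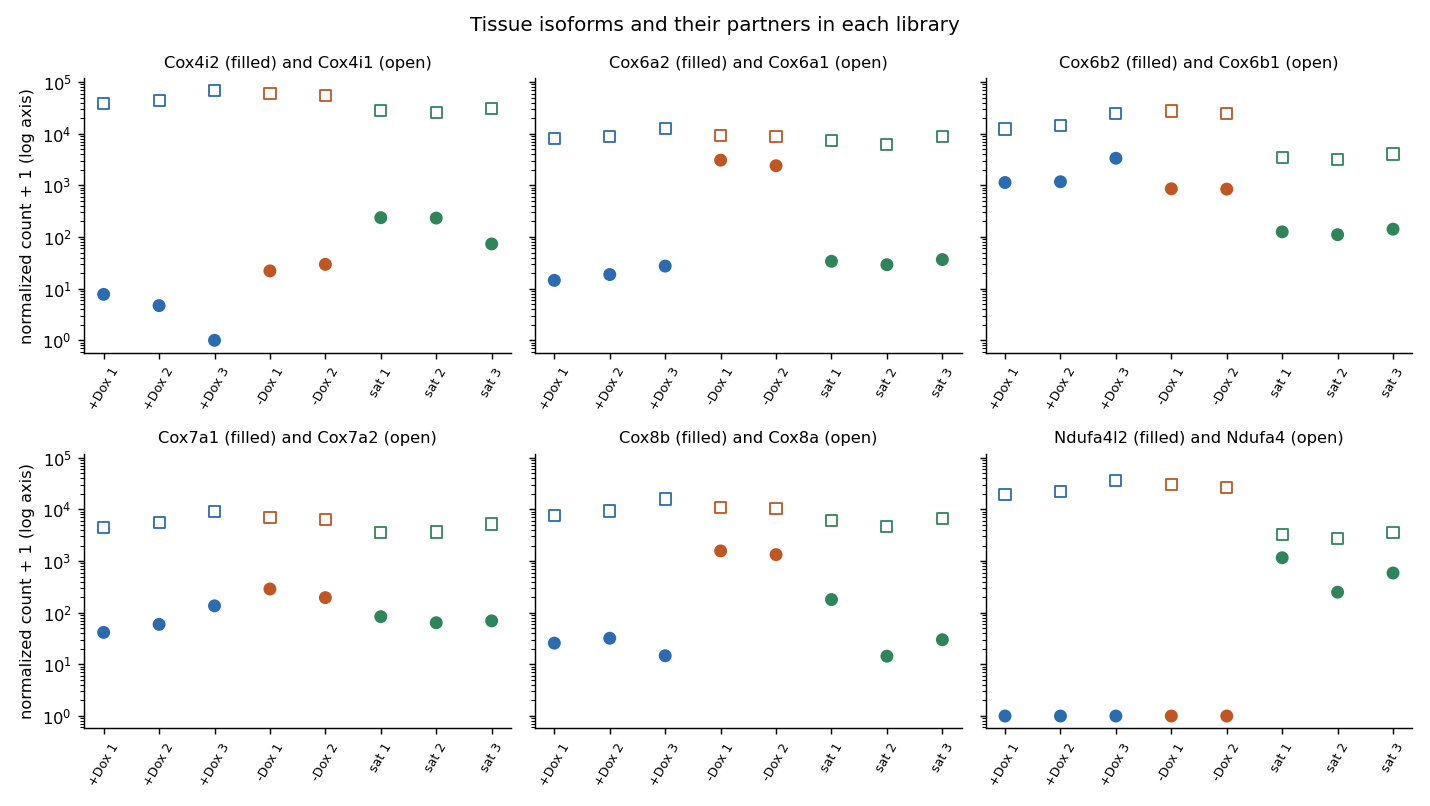
Normalized count plus 1, on a log axis, in each of the 8 libraries for 6 pairs of genes, with filled circles for the isoform of certain tissues and open squares for its partner. Cox6a2 and Cox8b are highest in the 2 -Dox libraries (2400 and 3079, and 1333 and 1572), and Ndufa4l2 is at 0 in all 5 iPax7 libraries.

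As a share of each pair, after division by transcript length, Cox6a2 made up 0.145, 0.176 and 0.181% of Cox6a1 plus Cox6a2 in +Dox, 22.2 and 19.0% in -Dox and 0.391, 0.395 and 0.354% in satellite cells. Cox8b made up 0.492, 0.501 and 0.129% of its pair in +Dox, 17.6 and 16.2% in -Dox, and 4.26, 0.429 and 0.655% in satellite cells. Cox7a1 made up 1.82, 2.15 and 2.94% in +Dox, 7.97 and 5.98% in -Dox and 4.5, 3.44 and 2.65% in satellite cells. For all 3 muscle isoforms the -Dox shares thus lay above every other library, and the general isoform remained the larger part of each pair. In the exact two-sided permutation test over libraries, each of these -Dox against +Dox differences reached p = 0.1, the smallest that 3 against 2 libraries allow (adjusted p = 0.125 over 15 comparisons). Without +Dox replicate 3 the differences were 20.4 percentage points for Cox6a2 and 16.4 for Cox8b, against 20.4 and 16.5 with it.

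The muscle fibre markers moved in the same comparison: 11 of 11 tested rose, where 4.66% of all genes did, with a median log2 fold change of 8.17. The remaining gene of the list, Mybpc2, was not tested and had no read in -Dox. The sum of the list stood at 33171 and 33623 CPM in -Dox. The part of the fibre markers in the rise of Cox6a2 and Cox8b was not tested, and in bulk RNA more cells of a type and more RNA per cell cannot be told apart.

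Among the members of complex I, none of which passed, Ndufs4, an accessory subunit, had 4163, 4717 and 6269 in +Dox and 10106 and 9222 in -Dox (log2 fold change 0.94 ± 0.353, adjusted p = 0.155). The groups did not overlap for this gene. Complex I as a whole had a median of 0.47 with 35 of 36 members above 0, complex II a median of 0.28, complex III 0.39, and complex IV 0.37. Without +Dox replicate 3 these medians were 0.75, 0.39, 0.73 and 0.76. Without +Dox replicate 3, Cox6b1, the general isoform of subunit VIb, and Ndufb9 were called in addition (4 members higher, with 3.93% of all genes called higher). Cox5a, chosen here after its values were seen, ran the other way. It had 2811, 5678 and 24048 in +Dox, 1073 and 1407 in -Dox and 4244, 5757 and 754 in satellite cells, with the largest spread relative to its mean within +Dox among the complex IV members (log2 fold change -3.13, adjusted p = 0.108, but called lower by DESeq2).

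**Figure D3:**
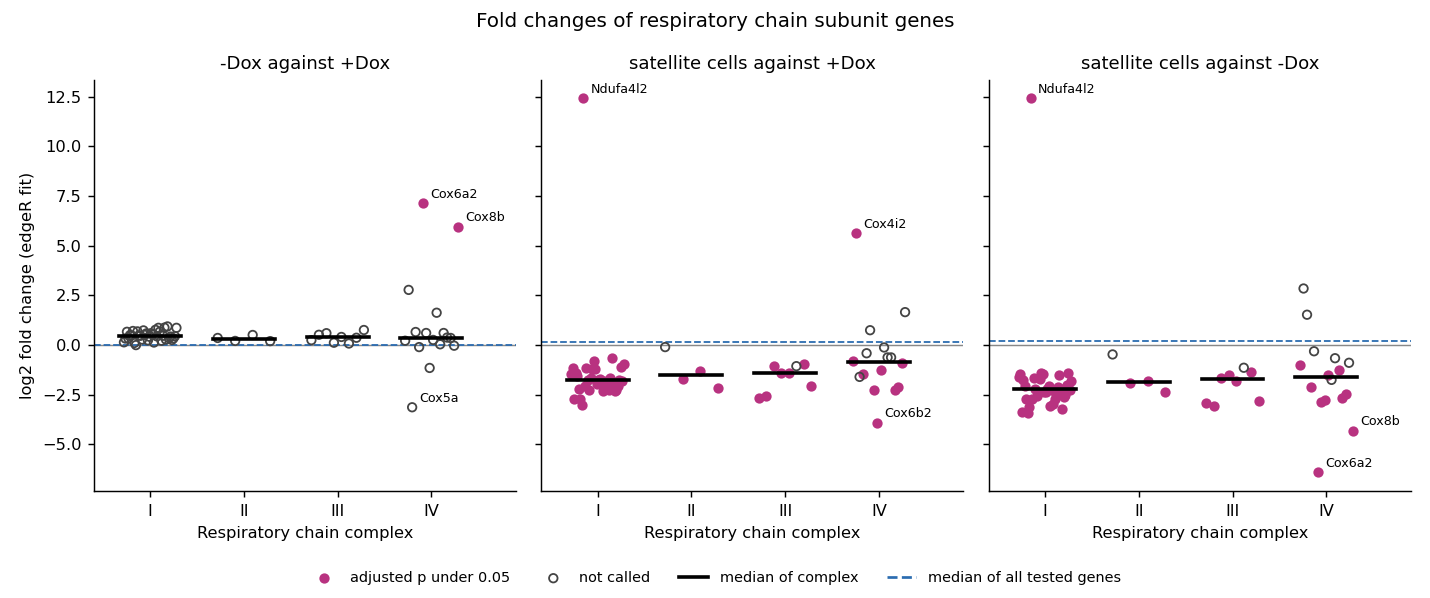
Fitted log2 fold change of each tested member in the 3 comparisons, grouped by complex, with filled points for an adjusted p under 0.05, black bars for the median of a complex and a dashed line for the median of all tested genes. In -Dox against +Dox only Cox6a2 (7.15) and Cox8b (5.96) are filled, whereas in both comparisons with satellite cells most members are filled and lie below 0.

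Satellite cells were compared with both iPax7 groups, as the muscle stem cells that the cultured precursors are set against. Subunits of all 4 complexes were lower in satellite cells. Against +Dox, 53 of 64 members fell (82.8%), 2 rose, 1 of them Ndufa4l2, and 9 were not called, where 19.8% of all genes tested fell and 25.1% rose. The median log2 fold change was -1.66, a 3.16-fold lower level, against 0.174 over all genes tested. Against -Dox, 55 fell (85.9%) and 1, Ndufa4l2, rose, where 18.1% of all genes fell and 20.9% rose, with a median of -2.12 against 0.231. Scaled to total counts alone, which lowers the median of all genes by 0.38 on the log2 scale, 57 members fell against +Dox where 26.0% of all genes fell and 20.0% rose. All 3 satellite libraries lay below all +Dox libraries in 53 members and above them in 3, where 26.3% of all genes lay below and 30.2% above. Against -Dox, 61 lay below and 2 above, where 30.6% of all genes lay below and 33.7% above. The 2 comparisons share the satellite libraries and are not independent.

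In complex I, 35 of 36 members tested fell in each comparison. Its 7 core subunits, which carry the flavin and iron-sulfur centres, all fell in both comparisons, with medians of -1.77 against +Dox and -2.12 against -Dox. Of the 29 accessory subunits tested, 28 fell in each, and the exception was Ndufa4l2. Ndufa4, now counted with complex IV although named for complex I, had the largest fall of the complex I genes against +Dox. It was at 19279, 22475 and 36829 in +Dox, 29950 and 26643 in -Dox, and 3250, 2745 and 3618 in satellite cells (log2 fold change -3.03 ± 0.298, adjusted p = 7.8e-05). Every satellite library was several-fold below the lowest iPax7 library.

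Ndufa11, an accessory subunit of the membrane arm, followed with 6195, 7481 and 12463 in +Dox, 14539 and 13189 in -Dox, and 1326, 1106 and 1567 in satellite cells (log2 fold change -2.71 ± 0.315 against +Dox, adjusted p = 0.00019). Ndufa3 was at 3107, 3740 and 6318 in +Dox, 7355 and 6994 in -Dox and 714, 295 and 1008 in satellite cells, with the widest satellite spread of these subunits relative to the mean (log2 fold change -3.42 ± 0.499 against -Dox, adjusted p = 0.000772). Neither group overlapped the satellite cells for Ndufa11 or Ndufa3. Ndufs4 was at 1405, 621 and 1038 in satellite cells and fell by 3.24 ± 0.366 on the log2 scale against -Dox (adjusted p = 0.000215).

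In complex II, 3 of 4 members fell against both iPax7 groups. Sdha, the flavoprotein, had 14329, 13005 and 9934 in +Dox, 16252 and 15738 in -Dox, and 6073, 15104 and 13534 in satellite cells, and was not called in any comparison (log2 fold change -0.10 ± 0.333 against +Dox, adjusted p = 0.829). Satellite replicate 1 was low and the other two lay within the iPax7 range. Sdhb, the iron-sulfur subunit, had 12075, 13108 and 18271 in +Dox and 5029, 3383 and 5046 in satellite cells (log2 fold change -1.69 ± 0.268, adjusted p = 0.000978). Of the membrane anchors, Sdhd had 15079, 15951 and 20829 in +Dox, 21035 and 18741 in -Dox, and 3981, 3535 and 4223 in satellite cells (log2 fold change -2.14 ± 0.229, adjusted p = 0.000122), and Sdhc had 4520, 4872 and 7450 against 3099, 1001 and 2689 (-1.31 ± 0.407, adjusted p = 0.0265). The Sdhc call was lost without +Dox replicate 3 (log2 fold change -1.05, adjusted p = 0.085). The longest coding transcript is 2900 bases in Sdha and 3171 in Sdhc, against 1142 in Sdhb and 1287 in Sdhd. The difference between Sdha and the other subunits was not tested.

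In complex III, 7 of 8 members fell against both iPax7 groups. Uqcr10 had 8138, 9422 and 16006 in +Dox, 14373 and 12213 in -Dox and 895, 1540 and 2937 in satellite cells (log2 fold change -2.64 ± 0.45 against +Dox, adjusted p = 0.00143). Uqcrq, the subunit next to cytochrome b, had 9733, 12393 and 16204 in +Dox, 23035 and 20252 in -Dox and 2733, 2458 and 3909 in satellite cells (-2.07 ± 0.284, adjusted p = 0.000431). Uqcr11 was scarce everywhere, at 91.6, 111 and 201 in +Dox, 195 and 190 in -Dox and 26.3, 18.8 and 22.4 in satellite cells, and 39.1% of its windows have a copy elsewhere, so its level is uncertain. Its fall was -2.57 ± 0.761 against +Dox (adjusted p = 0.0217), and that call was lost without +Dox replicate 3 (-2.16, adjusted p = 0.0593) and with the replicate block (adjusted p = 0.118). Uqcrfs1, the Rieske iron-sulfur protein, was the member not called, with 1078, 1309 and 3345 in +Dox and 520, 1096 and 1139 in satellite cells and a log2 fold change of -1.06 against +Dox (adjusted p = 0.099).

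Complex IV held most of the exceptions. Of 16 members tested, 8 fell and 1 rose against +Dox, and 10 fell and none rose against -Dox. Against -Dox, DESeq2 called 1 of them higher, Cox4i2, and the fit of these 2 groups with the replicate block called 1, Cox5a. Among the subunits with only 1 general gene or a general isoform, Cox6b1 fell by 2.27 ± 0.295 and Cox7b by 2.27 ± 0.319 on the log2 scale against +Dox (adjusted p = 0.000334 and 0.000521). Cox6b1 was at 12386, 14590 and 24462 in +Dox, 27612 and 24806 in -Dox, and 3462, 3173 and 4048 in satellite cells, and Cox7b at 7792 to 15852 in +Dox and 1886 to 2792 in satellite cells. Cox4i1, the subunit with the highest level per kilobase among complex IV members in every group, fell by 0.81 ± 0.256 (adjusted p = 0.0291), from 37778, 43370 and 67536 in +Dox to 27980, 25817 and 31252 in satellite cells. The Cox4i1 call was lost without +Dox replicate 3 (-0.52, adjusted p = 0.0657), without -Dox replicate 1 (adjusted p = 0.055) and without satellite replicate 2 (-0.74, adjusted p = 0.0762). Against -Dox, the calls of Cox4i1, Cox7a2l and Uqcr11 were lost when either -Dox library was left out (adjusted p from 0.0644 to 0.128), and that of Sdhc without -Dox replicate 1 (adjusted p = 0.0629).

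The other general isoforms had smaller fitted changes. Cox6a1 (-0.41, adjusted p = 0.209) and Cox7a2 (-0.62, adjusted p = 0.127) were not called against +Dox, Cox8a was called (-0.92, adjusted p = 0.0348), and Cox7a2l, a factor that joins complexes III and IV, was not (-0.62, adjusted p = 0.148). The Cox8a call was lost in 7 of the alternatives, among them leaving out +Dox replicate 3 (-0.54, adjusted p = 0.0953) or any 1 satellite library (adjusted p from 0.0513 to 0.1). Cox7a2l has copies of 54.3% of its windows elsewhere in the genome. Cox6b2 had the largest fall of the complex against +Dox, from 1136, 1176 and 3355 to 125, 110 and 141 (log2 fold change -3.91 ± 0.508, adjusted p = 0.00033). As a share of Cox6b1 plus Cox6b2 per kilobase it was 7.75, 6.88 and 11.2% in +Dox, 2.77 and 3.03% in -Dox, and 3.2, 3.08 and 3.1% in satellite cells, highest in every +Dox library (exact permutation p = 0.1 in each comparison, the smallest possible, adjusted p = 0.125).

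Of the muscle isoforms, Cox6a2 and Cox8b were far lower in satellite cells than in -Dox (log2 fold change -6.40 ± 0.48, adjusted p = 3.7e-05, and -4.30 ± 0.978, adjusted p = 0.00752). Neither was called against +Dox, with 0.75 ± 0.398 (adjusted p = 0.152) for Cox6a2 and 1.66 ± 0.865 (adjusted p = 0.143) for Cox8b. The Cox8b value rests on satellite replicate 1. Without that library its share in satellite cells exceeded that in +Dox by 0.168 percentage points instead of 1.41, and without satellite replicate 2 the rise was called (log2 fold change 2.16, adjusted p = 0.0466). Cox7a1 was not called against +Dox (-0.12 ± 0.746, adjusted p = 0.911).

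Ndufa4l2 and Cox4i2, both known as genes induced in low oxygen and used in vascular mural cells, were the members that rose. Ndufa4l2, a paralog of Ndufa4, had no read in any iPax7 library and normalized counts of 1160, 249 and 587 in satellite cells, which is at least 277-fold higher than +Dox and 241-fold higher than -Dox, with 3 counts per library as the floor. Since it entered the test through the satellite libraries alone it had to differ, and its call carries no weight of its own. Cox4i2 had 6.76, 3.7 and 0 in +Dox, 21.1 and 28.6 in -Dox, and 236, 232 and 72.5 in satellite cells (log2 fold change 5.63 ± 1.38 against +Dox, adjusted p = 0.00936, and 2.85 ± 1.42 against -Dox, adjusted p = 0.135). It made up 0.774, 0.825 and 0.215% of Cox4i1 plus Cox4i2 per kilobase in satellite cells. Markers of pericytes and smooth muscle were called higher in the same libraries for 4 of 5 genes against +Dox, where 25.1% of all genes were. Against -Dox, 3 of these genes were called higher and 1 lower, where 20.9 and 18.1% of all genes were. Rgs5, a pericyte marker, was at 10275, 18483 and 9683 in satellite cells and at 0.911 to 45 in iPax7 cells, Myh11 was at 0 in all +Dox libraries, and the list summed to 356 to 730 CPM in satellite cells, 72.2 to 180 in +Dox and 1124 and 1148 in -Dox, where Acta2 made up most of it. The part of these cells in both rises was not tested.

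Transcript length moved with these differences. Other tested genes with a longest coding transcript under 600 bases had a median log2 fold change of -0.41 in satellite cells against +Dox, those of 600 to under 1000 bases -0.87, and those of 4000 bases or more 0.64. Members lay below the other genes in every length class, with medians of -1.46 under 600 bases (17 members), -1.77 from 600 to under 1000 (21 members) and -1.67 from 1000 to under 2000 (19 members, where other genes stood at -0.25). Of the 26 members with 1000 bases or more, 23 fell against +Dox and 24 against -Dox. In +Dox replicate 3 against the mean of replicates 1 and 2, other genes under 600 bases differed by 0.85 and those of 4000 or more by -0.52, and the members by a median of 0.77. Without that library, 41 of 64 members fell in satellite cells against +Dox, where 17.7% of all genes fell, and all 41 were among the 53. They were 29 of 36 in complex I, 2 of 4 in complex II, 4 of 8 in complex III and 6 of 16 in complex IV, with medians of -1.55, -1.27, -1.34 and -0.40, and the median over all members was -1.38. Beyond these values, the part of length in the fall was not tested.

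**Figure D4:**
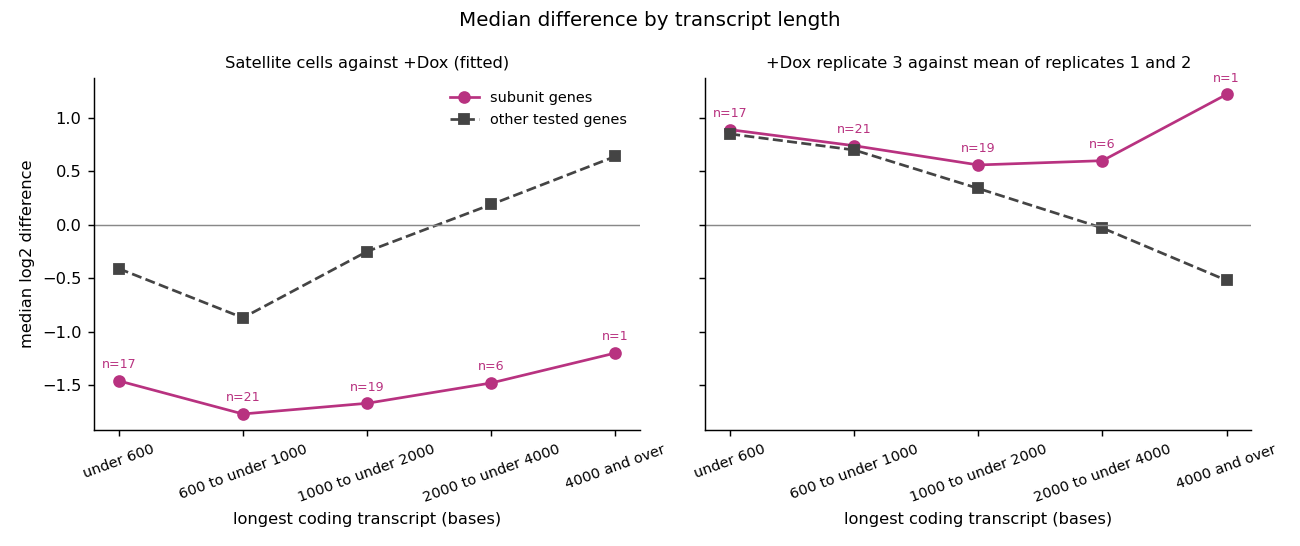
Median log2 difference of the subunit genes and of other tested genes by length of the longest coding transcript, for satellite cells against +Dox (left) and for +Dox replicate 3 against the mean of replicates 1 and 2 (right), with the number of members in each class. In satellite cells the members lie below the other genes of the same length (-1.67 against -0.25 at 1000 to under 2000 bases), and in +Dox replicate 3 short transcripts of both kinds are high. The last class holds 1 member.

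Several members have copies of part of their transcript elsewhere in the genome, and the shares of alignments set aside as not unique differed between the groups. Of the 33 tested members without any copied 50-base window, 26 fell against +Dox and 28 against -Dox, with medians of -1.69 and -2.24. Of the 16 with at least 10% of windows copied, 14 fell in each comparison, with medians of -1.44 and -1.69. Beyond these values, the part of copies in the fall was not tested.

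Other parts of the mitochondrial programme were read from lists of genes that the rule did not use. In ATP synthase (18 genes), none was called in -Dox against +Dox and 16 fell in satellite cells in each comparison (median log2 fold change -1.79 against +Dox and -2.26 against -Dox), where 19.8 and 18.1% of all genes fell. Atp5k fell by 2.76 and Atpif1, the inhibitor of the enzyme, by 2.94 against +Dox (adjusted p = 0.00037 and 0.000176), and Atp5o by 3.06 against -Dox (adjusted p = 0.000111). Of the assembly factors, none was called after Dox withdrawal. In satellite cells against +Dox, 5 of 13 for complex I fell, 8 of 10 for complexes II and III fell and 1 rose, and 14 of 19 for complex IV fell and 1 rose, where 19.8% of all genes fell and 25.1% rose. Without +Dox replicate 3, 15 of 18 ATP synthase genes and 4, 7 and 13 of these assembly factors fell, where 17.7% of all genes did.

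The assembly factors with the largest falls were Sdhaf4, a factor for Sdha, from 2893, 3467 and 5255 in +Dox to 180, 44.2 and 153 in satellite cells (log2 fold change -4.94 ± 0.539, adjusted p = 0.000134), and Coa4, from 434, 454 and 610 to 35.5, 0 and 35.6 (-4.39 ± 1.03, adjusted p = 0.00757). In the same comparison Uqcc3, Coa3, Ndufaf5 and Tmem126b fell, with log2 fold changes of -2.97, -3.07, -2.16 and -2.72. The Tmem126b call was lost without +Dox replicate 3 (-2.53, adjusted p = 0.08) and without 3 other libraries in turn. Against -Dox, Sdhaf3 and Ndufaf3 fell, with log2 fold changes of -3.47 and -2.57 (adjusted p = 0.00192 and 0.00402). Those that rose were Ttc19 (2.16 against +Dox and 1.30 against -Dox, adjusted p = 0.00163 and 0.0361) and Cox11 (2.50 and 2.67, adjusted p = 0.00361 and 0.00705). The calls of both against -Dox were lost when either -Dox library was left out. For Cox11 these were the only 2 alternatives that lost the call. The Ttc19 call was lost in 9, among them the edgeR fit of only the 2 groups (1.24, adjusted p = 0.0612).

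In the tricarboxylic acid cycle and pyruvate entry (18 genes), Pdhb, a subunit of pyruvate dehydrogenase, rose in -Dox from 6679, 6696 and 8479 to 15573 and 14636 (log2 fold change 1.05 ± 0.236, adjusted p = 0.0265), a call lost when +Dox replicate 1 or 2 or either -Dox library was left out (adjusted p from 0.0999 to 0.222). Pdhb was 1 of 18 genes (5.56%), near the 4.66% of all genes that rose. In satellite cells against +Dox, 10 fell, led by Suclg1 (-2.37) and Fh1 (-2.33), where 19.8% of all genes fell. Without +Dox replicate 3, again 10 fell, where 17.7% of all genes did. The 1 that rose against +Dox, where 25.1% of all genes did, was Pdk4, the kinase that switches pyruvate dehydrogenase off. Pdk4 had 1397, 1655 and 740 in +Dox, 501 and 619 in -Dox, and 13299, 8096 and 5049 in satellite cells (2.80 ± 0.431, adjusted p = 0.00083). Against -Dox, 12 fell and Pdk4 rose by 3.98, where 18.1% of all genes fell and 20.9% rose. Of cytochrome c, cytochrome c1 and the acyl carrier Ndufab1, only Ndufab1 was called, lower in satellite cells than in +Dox (-2.43, adjusted p = 0.00547). None of the 26 genes of the mitochondrial genome is listed in the count files, so the subunits encoded there were not analysed here.

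Of 17 regulators of mitochondrial genes, 1, Esrrg, rose after Dox withdrawal (5.88%, where 4.66% of all genes did). In satellite cells against +Dox, 5 rose (29.4%, where 25.1% of all genes did) and none fell, where 19.8% of all genes did. Against -Dox, 5 were higher and 1 lower (29.4 and 5.88%), where 20.9 and 18.1% of all genes were. The shares of higher calls after Dox withdrawal and against +Dox are near those of all genes. Esrrg, a nuclear receptor of oxidative muscle, had no read in any +Dox library, 207 and 328 normalized counts in -Dox, and 153, 34.9 and 405 in satellite cells, at least 111-fold and 82.2-fold higher (adjusted p = 0.00753 and 0.00167). Esrrg entered the test only through the groups in which it had reads, so its calls against +Dox carry no weight of their own. Nrf1 (2074, 2093 and 1564 in +Dox, 1609 and 1000 in -Dox, 1731, 2673 and 2483 in satellite cells), Gabpa and Tfam were not called in any comparison, with log2 fold changes of 0.27, 0.56 and 0.03 in satellite cells against +Dox. Ppargc1a, the coactivator of oxidative metabolism, varied widely within groups (708, 164 and 350 in +Dox, 51.5 and 211 in -Dox, and 1120, 223 and 150 in satellite cells) and was not called, nor were Ppargc1b and Esrra. Pprc1, a relative of Ppargc1a, rose in satellite cells against +Dox (2.16, adjusted p = 0.00702) and against -Dox (2.86, adjusted p = 0.00523). Against -Dox, Ppard rose by 2.32 and Tfb1m fell by 3.57 (adjusted p = 0.0422 and 0.0484), and both calls were lost under at least 8 of the alternatives.

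The deposited peak lists were then read at the start of each member to see whether its chromatin differed between the conditions. Each list was called on merged replicates, so a presence carries no replicate error. Regions of open chromatin (ATAC-seq) within 1 kb of the start were listed for 60 of 67 members in +Dox. They were also listed for 60 at 12 h, 24 h and 3 days without Dox. In myotubes made from iPax7 cells they were listed for 62, and in satellite cells for 60. Of 19026 genes, 64.2% had one in +Dox and 62.2, 65.5 and 66.7% at 12 h, 24 h and 3 days without Dox. In myotubes 62.9% had one, and in satellite cells 59.7%. Acetylated H3K27 was listed at 61 members in +Dox and 60 in -Dox (49.1 and 46.0% of all genes), and H3K4me3 at 61 and 64 (62.3 and 68.0%). H3K4me1 was at 63 and 64 members (63.4 and 66.4% of all genes), and the repressive mark H3K27me3 at 6 and 3 (20.9 and 19.2%). Those with H3K27me3 were Cox4i2, Ndufa4l2 and Ndufa8 in both conditions, and Cox6a2, Ndufa9 and Ndufa10 in +Dox. Open chromatin was thus listed at as many members in satellite cells as in iPax7 cells with Dox and at each time without it. The RNA of most members was lower in satellite cells.

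Of the muscle isoforms, Cox6a2 and Cox8b parted from this pattern and Cox7a1 did not. Cox6a2 had no open region in +Dox, at 12 h, 24 h or 3 days without Dox, or in satellite cells, and had one in myotubes (fold enrichment of 4.41 over background). It lay in an H3K27me3 region in +Dox and not in -Dox, and had no H3K27Ac, H3K4me1 or H3K4me3 region in either. Cox8b was likewise open in myotubes only (fold enrichment of 12.3), and its start lay in H3K27Ac, H3K4me1 and H3K4me3 regions in -Dox but not in +Dox. At 3 days without Dox the RNA of both had thus risen while neither was in the list of open regions. The -Dox lists hold more regions than the +Dox lists for H3K4me1 (243932 against 186990) and H3K4me3 (214172 against 94067). They hold fewer for H3K27Ac (90168 against 119528) and H3K27me3 (139870 against 178271). The part of list size in the differences at Cox6a2 and Cox8b was not tested.

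Cox7a1 was open in every list, with a fold enrichment of 9.73 in +Dox, 10.6 at 12 h, 14.8 at 24 h, 17.4 at 3 days, 11 in myotubes and 9.76 in satellite cells. It carried H3K27Ac, H3K4me1 and H3K4me3 regions with and without Dox. No start of another gene lies within 1 kb of Cox6a2, Cox7a1 or Cox8b in the annotation. The general partners Cox6a1, Cox7a2 and Cox8a were open in every list and held both H3K27Ac and H3K4me3 in both conditions, with fold enrichments of 38.7, 40.8 and 40.4 in +Dox. Depth and the number of regions differ between lists, so a difference in fold between lists is no measure of change.

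Cox4i2 and Ndufa4l2 had no open region in any list, satellite cells included, although both had RNA there. Both lay in H3K27me3 and H3K4me1 regions with and without Dox, and in an H3K4me3 region in -Dox only. The -Dox H3K4me3 list holds 214172 regions against 94067 in +Dox, and the part of that difference in size was not tested. Cox7b2 and Cox8c, which gave no reads, had no region in any list. Cox6b2, listed as open in each condition, had fold enrichments of 17.2 in +Dox, 26.5 at 3 days, 4.9 in myotubes and 4.88 in satellite cells.

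**Figure D5:**
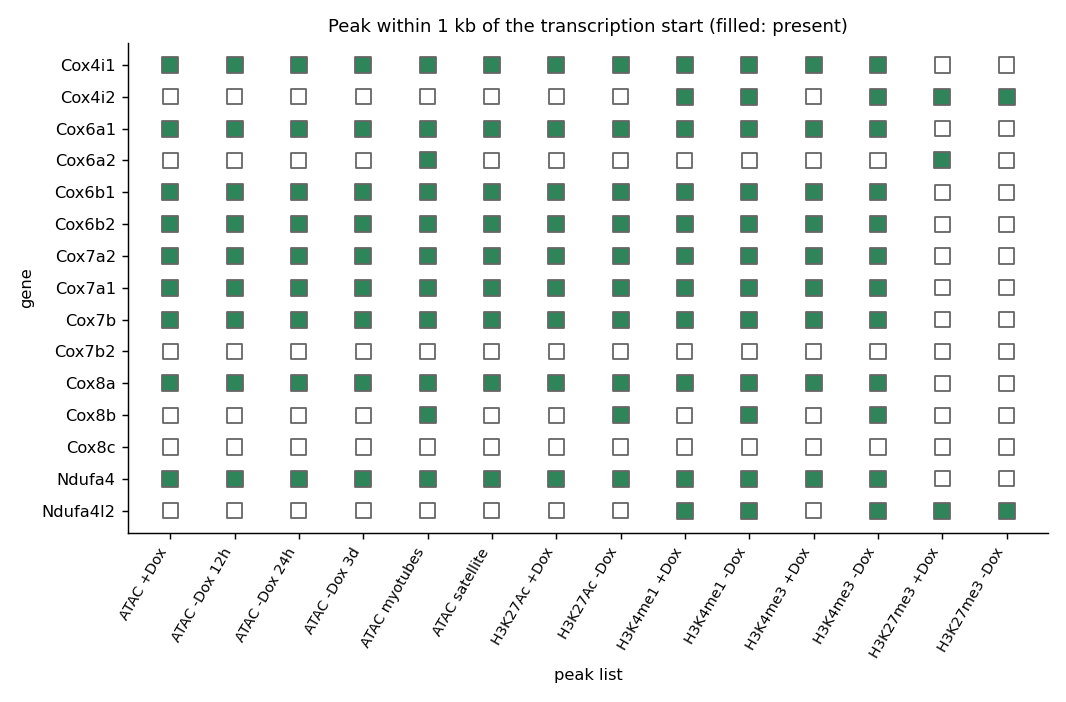
Presence (filled) or absence (open) of a region within 1 kb of the start of 15 genes in 14 peak lists. General isoforms are filled in all ATAC-seq, H3K27Ac, H3K4me1 and H3K4me3 lists, Cox6a2 and Cox8b are filled for ATAC-seq in myotubes only, and Cox7b2 and Cox8c are empty throughout.

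Pax7 sites were listed near few gene starts of any kind. None lay within 1 kb of a member, where 1.46% of all genes had one, and none within 10 kb, where 3.09% had one. With 67 members and shares this low, finding none does not set the members apart from other genes. Within 100 kb, 13 of 67 members had a site, and 17.9% of all genes did. A site lay 19.5 kb from the start of Ndufb9, 25.7 kb from that of Uqcr10 and 41.1 kb from that of Cox8b.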

How the data were processed

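RNA-seq gave 8 libraries, and the deposited files hold whole counts of reads per gene symbol, which per the labels and methods the authors made with Trimmomatic 0.32, TopHat2 2.0 and HTSeq 0.6 on mm9. The gene annotation, strand setting and read length are not given in the sources used here. For ATAC-seq the authors aligned reads with Bowtie2 2.2.6, removed duplicates and called peaks with MACS2 2.0.10 on merged replicates, and these deposited files give fold enrichment (a ratio), −log10 of p and q, and a score per peak. The deposited ChIP-seq lists give positions without a score. Peak values of −log10 p were not used.

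Counts were tested with edgeR 4.0.16 in R 4.3.3 (TMM scaling, low counts filtered, quasi-likelihood test, 1 mean per group, all 8 libraries in 1 fit), with Benjamini-Hochberg adjustment over the 14836 genes tested and a threshold of 0.05. DESeq2 1.42.0 was an alternative. Standard errors are approximate, from the log2 fold change over the root of its F statistic. Isoform shares were compared by exact permutation in scipy 1.17.1. Starts, lengths and promoters came from GENCODE M1 on NCBIM37, in which 19026 symbols matched coding genes, all 67 members included, and copied windows were exact 50-base matches in that genome. Replicate numbers come from the names under which the counts were deposited. Same-numbered libraries did not deviate together (r from -0.04 to 0.027), but with 2 or 3 libraries a group this cannot show that they are unpaired. Within-group library pairs differed by more than sampling noise (chi-square per degree of freedom from 48.5 to 443). The scripts were tested on simulated data. The members and lists were chosen with earlier results of these data known. Genes were named by rule: complex IV isoforms and partners, Ndufa4 and Ndufa4l2, Sdha to Sdhd, 7 regulators, and the 3 called members per complex (2 genes per list) with the largest change in each direction. Genes named beyond it, such as Cox5a, Ndufb9, Uqcrfs1 and Rgs5, were chosen after their values were seen. The lists of a myoblast line were not used.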

Additional observations from a re-analysis of the deposited data

How the results depend on the processing

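The number of members lower in satellite cells varied less than the number called after Dox withdrawal. Against +Dox, between 41 and 57 members fell, with 41 to 52 when 1 library was left out and 47 with the replicate block, and against -Dox between 46 and 57 fell. The calls after Dox withdrawal depended on the fit. Against the 2 members called higher, DESeq2 called 4, the fit of only the 2 groups called 6, and leaving out 1 library gave 2 to 4. With the replicate block, that fit called 48 of 63 members higher and 1 lower, where 15.3% of all genes were called higher. No label says whether same-numbered libraries are paired, and +Dox replicate 3 has no same-numbered library in -Dox. DESeq2 also called 1 lower. Over all genes this comparison gave 691 higher and 451 lower, with 1180 and 1097 by DESeq2, 1128 and 1027 with only the 2 groups, and 2023 and 1994 with the block. In satellite cells against -Dox, 2 members rose by DESeq2 and 2 with the replicate block, in place of 1. Scaled to total counts alone, which lowers the median of all genes by 0.21 on the log2 scale, -Dox against +Dox had 3.84% of genes higher and 4.11% lower, and satellite cells against -Dox had 18.3 and 20.4%. Without the division by length, the difference in isoform share after Dox withdrawal was 22.8 percentage points for Cox6a2, 2.37 for Cox7a1 and 11.7 for Cox8b, that of satellite cells against -Dox was -22.6, -1.76 and -10.7, and that of Cox6a2 in satellite cells against +Dox was 0.244. Of 159 results on named genes, 108 kept their side of the threshold under every alternative, and none that was called changed sign. Leaving out a -Dox library leaves 1, which is assumed to vary like the other groups. A stricter score was not run for ChIP-seq lists, which hold none. Peak presence was also read from any annotated start of a gene, an alternative chosen after seeing the data. With 2 or 3 libraries a group, small changes were not detectable at this depth, and adjusted p-values above the threshold do not show equal levels.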
